A study of Mus musculus with 12 samples.

Results

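Il6, Lif and Csf1 encode secreted cytokines, Cxcl1, Cxcl10 and Cxcl16 encode CXC chemokines, and Ccl2 and Ccl5 encode CC chemokines. These 8 inflammatory ligands were taken by gene symbol and are 8 of the 15803 genes listed in at least 1 library. KPC is a mouse pancreatic ductal adenocarcinoma (PDAC) line from engineered mice that carry, among their alleles, Trp53 LSL-R172H, which Cre under the pancreatic Pdx1 promoter (Pdx1-Cre) switches on. The cells were given the DNA-crosslinking drug cisplatin (Cis) at 20 μM for 6 h or 21 h, or were labelled as without treatment, for which the methods of the study name PBS at either time and the labels give no duration. There is 1 control group, so drug and time in culture cannot be told apart in the differences from it. Lysates were made in cycloheximide, which holds ribosomes on mRNA, and each was measured by ribosome profiling, which sequences the mRNA pieces that ribosomes protect (footprints), and by RNA-seq. Each of the 3 groups has 2 libraries per assay, 12 in all. The question is which of the 8 mRNAs changed in amount, in ribosome occupancy, or in footprints relative to RNA (translation efficiency, TE) at each time. The labels do not say whether the replicates came from separate cultures, and a general remark on repeats in the methods does not name these libraries, so p-values measure the spread between these libraries, which may be technical. The 6 h and 21 h comparisons share the same control libraries.

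Inflammatory cytokines and chemokines are transcribed from genes that NF-κB, AP-1, C/EBP and interferon regulatory factors bind, and many of their mRNAs carry AU-rich elements that shorten their lives. The proteins act on receptors of neighbouring cells: IL-6 and LIF signal through receptors that share gp130 and activate JAK kinases and STAT3, CSF1 keeps macrophages alive, and chemokines draw leukocytes through G protein-coupled receptors. In pancreatic tumors such ligands are exchanged between cancer cells, fibroblasts and myeloid cells.

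Levels are given as deposited RPKM, which scale reads by library size and by a length, that of the coding region for footprints and of the whole transcript for RNA (633 and 1141 bases for Il6). The footprint libraries hold between 3375480 and 5204127 reads and the RNA libraries between 1985344 and 2901692, of which 3 genes (Lars2, Tmem38b and Mettl26) take 51.8% to 56.6%. That leaves between 862476 and 1341584 RNA reads for all other genes, so the RNA values of the least abundant of the 8 genes rest on few reads. In control footprints the order of mean levels was Ccl2 (366 ± 8.66 RPKM, SD, n = 2), Cxcl10 (226 ± 19.5), Ccl5 (109 ± 17.5), Cxcl1 (67.3 ± 17.2), Csf1 (15.8 ± 0.503), Lif (15.6 ± 4.20), Cxcl16 (9.22 ± 0.524) and Il6 (1.08 ± 1.05). The libraries of neighbours in this order did not overlap, except those of Csf1 and Lif. Ccl2 lay above 95.1% of the tested genes in control footprints, Cxcl10 above 92.0%, Ccl5 above 85.1% and Cxcl1 above 78.2%, while Il6 lay above 1.49%. The 4 abundant chemokines thus had more footprints per coding length than most genes of untreated KPC cells, and Il6 was near the bottom. In control RNA the order of means was Ccl2 (37.5 ± 1.49 RPKM, SD, n = 2), Ccl5 (34.7 ± 0.556), Cxcl10 (31.7 ± 3.44), Cxcl1 (24.4 ± 1.72), Csf1 (4.86 ± 0.131), Lif (4.37 ± 1.33), Cxcl16 (1.81 ± 0.210) and Il6, which had no read. There too the Csf1 and Lif libraries overlapped and the other neighbours did not. The control ratio of footprint to RNA level, each per its own length, as a log2 difference from the median of 9292 genes, was 1.50 for Ccl2 and 1.05 for Cxcl10, the highest of the 7 genes with control RNA reads. It was 0.57 for Cxcl16, 0.06 for Lif, −0.08 for Csf1, −0.12 for Ccl5 and −0.32 for Cxcl1. Ccl2 and Cxcl10 therefore had a higher ratio than the median gene, and Cxcl1 a lower one.

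The order of levels shifted with time. At 6 h in footprints it ran Ccl2, Cxcl10, Ccl5, Cxcl1, Lif, Csf1, Cxcl16 and Il6, with overlap of Ccl5 and Cxcl1. At 21 h it ran Ccl2, Cxcl10, Ccl5, Cxcl1, Lif, Il6, Cxcl16 and Csf1, with overlap of Il6 with Cxcl16 and of Cxcl16 with Csf1. In RNA at 6 h it ran Ccl2, Cxcl10, Cxcl1, Ccl5, Lif, Csf1, Cxcl16 and Il6, and Cxcl10 overlapped Cxcl1, Cxcl1 overlapped Ccl5, Lif overlapped Csf1, and Csf1 overlapped Cxcl16. In RNA at 21 h Cxcl1 stood first, followed by Cxcl10, Ccl2, Ccl5, Lif, Cxcl16, Csf1 and Il6, with no overlap of neighbours. Counted together, the 8 genes took 331 and 312 footprints per 1000000 in the control libraries, 318 and 315 at 6 h, and 346 and 342 at 21 h. In RNA they took 149 and 150.3 reads per 1000000 in the controls, 158 and 159 at 6 h, and 268 and 282 at 21 h. Their summed RNA share at 21 h was above that of every other RNA library, and their summed footprint share was highest at 21 h by a smaller margin.

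Markers of epithelial cells were abundant in this carcinoma line. All 6 epithelial markers had reads in every footprint library, with Krt8 the most abundant, although Epcam had only 1 to 9 footprint reads and 0 to 4 RNA reads. Their summed footprint level, in RPKM after scaling between libraries, was 9278 to 9715 in the controls, 9258 to 9321 at 6 h and 6555 to 6724 at 21 h. In RNA it was 1442 to 1527, 1464 to 1531 and 1244 to 1262. At 21 h Krt7 footprints fell by 1.13 on the log2 scale, Krt19 fell by 0.83 (limma adjusted p = 0.000161) and Cdh1 fell by 0.62, and 4 of 5 were called lower, leaving out Epcam, which reached the minimum level only through the controls. In RNA at 21 h 3 of the 5 tested were lower and 1, Krt18, was higher: Krt19 fell by 0.77, Cdh1 fell by 0.46 and Krt8 fell by 0.32. The RNA calls of Krt18 (without either control library or 21 h replicate 1, limma adjusted p = 0.0748 to 0.115), Cdh1 (without control replicate 2 or either 21 h replicate, 0.0669 to 0.142) and Krt8 (without control replicate 1 or 21 h replicate 2, 0.0546 to 0.109) did not hold; each was also lost without the trend, Cdh1 without scaling and Krt8 with quantile normalization. In these bulk samples fewer cells of a type and less RNA per cell cannot be told apart, and the part of the lower epithelial markers in the results at 21 h was not tested.

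Leukocytes are a common source of these ligands in tumors, and of 10 leukocyte markers 2 to 5 had reads in a footprint library and 1 to 5 in an RNA library. Tyrobp and Cd3e had none, Ptprc had 0 to 3 footprint reads and 0 RNA reads, and Adgre1 had 0 to 3 and 0. The summed level came mostly from Cd14 (223 to 461 footprint reads): it was 71.5 to 82.2 in control footprints, 86.6 to 96.0 at 6 h and 60.9 to 69.0 at 21 h, and 19.1 to 22.3, 20.5 to 21.1 and 18.8 to 20.9 in RNA. Cd14 footprints fell by 0.36 at 21 h (limma adjusted p = 0.0324), a call lost without control replicate 1 or either 21 h replicate (0.0729 to 0.166), without scaling and without the trend. Cd68, the other of 2 leukocyte markers tested in footprints, had 7 and 11 reads in the controls, 9 and 4 at 6 h, and 20 and 10 at 21 h. Its footprint difference at 21 h was above 0 and was not called by limma, but was called higher in some alternatives, quantile normalization among them. In RNA Cd68 had 0 to 9 reads and reached the minimum level only through 21 h, so its RNA test is not given. The 7 fibroblast markers summed to 9.31 to 9.72 in control footprints, 6.79 to 9.68 at 6 h and 3.60 to 8.28 at 21 h, mostly from Col3a1, which fell by 1.25 (limma adjusted p = 0.00735) and had 4 to 26 RNA reads. Col1a1 had 8 and 11 footprint reads in the controls and 13 and 26 at 21 h. Their RNA summed to at most 1.96 in any library. The 5 endothelial markers together had 0 to 5 footprint reads and 0 to 2 RNA reads, and none was tested.

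**Figure D1:**
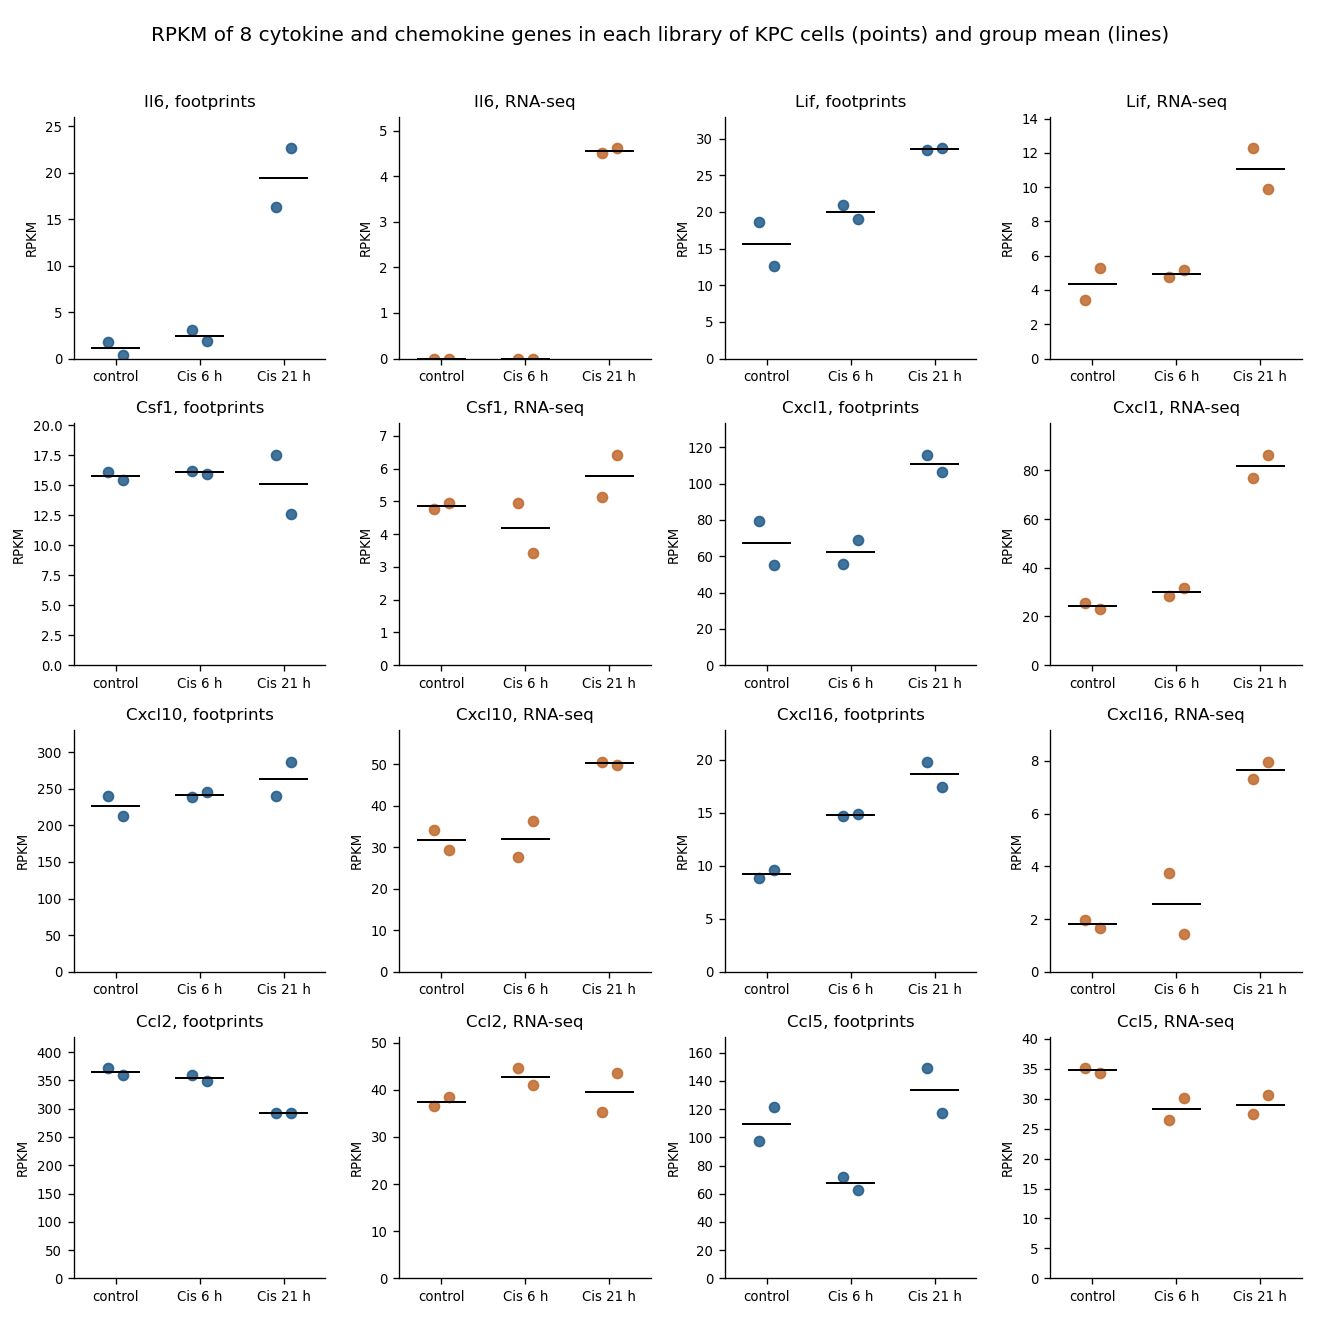
RPKM of the 8 genes in each footprint and RNA-seq library of control cells and of cells after 6 h and 21 h of Cis, on linear axes from 0, with points for the 2 libraries of a group and a line for their mean. Il6, Cxcl1, Lif and Cxcl16 stand highest at 21 h in both assays, while Ccl2 footprints are lowest at 21 h and Ccl5 footprints are lowest at 6 h.

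After 6 h of Cis no gene passed the test in footprints (8 counted) or RNA (7 counted). The test was limma on log2 of scaled RPKM plus 0.5, with p-values adjusted over all genes tested and called under 0.05. In footprints 0 of 8 were called by limma, where 2.04% of 10383 genes were called, 3 had an unadjusted p under 0.05 (21.4% of all genes), and voom on the recovered reads called 1, Ccl5 (12.3% of all genes). In RNA Il6, with no read in the control and 6 h libraries, reached the minimum level for testing only through 21 h and is left out of all RNA and TE counts. Of the other 7 genes 0 were called by limma, where 0% of 9443 genes were called, 1 had an unadjusted p under 0.05 (11.5% of all genes), and voom called 0 (2.43% of all genes). The footprint libraries of Il6, Lif and Cxcl16 at 6 h all lay above the controls and those of Ccl5 and Ccl2 below them. Of these, Ccl5, Cxcl16 and Il6 had the unadjusted p under 0.05, and none passed after adjustment by limma.

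After 21 h some of the 8 genes passed the test in each assay. In footprints 4 of 8 rose (Il6, Cxcl16, Lif and Cxcl1) and 1 fell (Ccl2), where 18.9% of the genes tested rose and 20.2% fell. In RNA 4 of 7 rose (Cxcl16, Cxcl1, Lif and Cxcl10) and 0 fell by limma, where 11.6% rose and 12.2% fell. Voom also called 4 higher and 0 lower, where it called 31.8% of all genes, and 5 of 7 had an unadjusted p under 0.05, as did 37% of all genes. Csf1 and Ccl5 passed in neither assay at 21 h. The RNA count was 2 without 21 h replicate 1 and 3 without any other of the 4 libraries. Set directly against 6 h, footprints at 21 h were higher for 3 genes (Il6, Ccl5 and Cxcl1) and lower for 1 (Ccl2), where 15% and 15.7% of all genes were called. The footprint count was 2 without 6 h replicate 1. RNA at 21 h was higher than at 6 h for 4 of 7 genes (Cxcl1, Cxcl16, Lif and Cxcl10), where 7.53% were called higher and 8.21% lower, and this count was 2 without either 6 h library and 1 without either 21 h library, with no filter or without the trend.

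Il6 (ENSMUSG00000025746) encodes interleukin-6, which drives acute-phase and STAT3 responses. Its footprints stood at 1.82 and 0.339 RPKM in the controls, 3.03 and 1.87 at 6 h, and 16.3 and 22.6 at 21 h, from 6, 1, 9, 4, 38 and 50 reads in that order. Both libraries at 21 h were far above all others, and the 6 h libraries were only just above the controls. Footprints rose at 21 h by 3.79 on the log2 scale (SE 0.451, 95% interval 2.76 to 4.82, limma adjusted p = 0.000405), the largest change of the 8 genes. This value was 4.52 without control replicate 1 and 3.07 without control replicate 2, and was called in both. At 6 h the difference was 1.05 (adjusted p = 0.229), and 21 h exceeded 6 h by 2.74 (limma adjusted p = 0.00305). In RNA, Il6 had no read in the control and 6 h libraries, and 4.52 and 4.61 RPKM at 21 h, from 12 and 11 reads. Il6 mRNA was thus seen at 21 h alone among the RNA libraries. Taking 3 reads per library as the most that a count of 0 allows, its level after scaling between libraries was at 21 h at least 4.36-fold higher than in the controls and at least 3.33-fold higher than at 6 h. No p-value is given for Il6 RNA, since a gene that reaches the minimum level only through 1 group had to differ. Such limits and intervals on reads cover counting error only.

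Lif (ENSMUSG00000034394) encodes leukemia inhibitory factor, a gp130 cytokine of the IL-6 family. Its footprint level was 18.6 and 12.7 RPKM in the controls, 21.0 and 19.0 at 6 h, and 28.5 and 28.7 at 21 h. The 3 groups did not overlap, and the 21 h libraries were nearly equal. Lif footprints rose at 21 h by 0.84 (SE 0.177, 95% interval 0.43 to 1.24, limma adjusted p = 0.00625). Neither the 6 h difference of 0.35 (adjusted p = 0.296) nor the step of 0.49 from 6 h to 21 h (limma adjusted p = 0.0684) passed. Lif RNA was 3.43 and 5.31 RPKM in the controls, 4.75 and 5.16 at 6 h, and 12.3 and 9.86 at 21 h. Control and 6 h libraries overlapped, and both at 21 h were higher. RNA rose at 21 h by 1.19 (SE 0.239, 95% interval 0.65 to 1.72, limma adjusted p = 0.00701), and by 0.93 over 6 h (0.0275). The call against the controls was lost without control replicate 1 (0.0589) or 21 h replicate 1 (0.051), with a range up to 0.0589 over 12 alternatives. The call against 6 h was lost without 6 h replicate 1 (limma adjusted p = 0.104), 6 h replicate 2 (0.0753), 21 h replicate 1 (0.153) or 21 h replicate 2 (0.0536), with no filter on low values (0.069) and without the trend (0.0632), and over 12 alternatives p ran from 0.000229 to 0.153.

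Csf1 (ENSMUSG00000014599) encodes macrophage colony-stimulating factor. Its footprints were 16.1 and 15.4 RPKM in the controls, 16.2 and 15.9 at 6 h, and 17.5 and 12.6 at 21 h. RNA was 4.77 and 4.95, 4.95 and 3.42, and 5.14 and 6.42 RPKM. The groups overlapped in footprints, and the RNA libraries at 21 h lay only just above the controls. At 21 h the footprint difference was −0.12 (95% interval −0.52 to 0.28, limma adjusted p = 0.629) and the RNA difference 0.14 (95% interval −0.38 to 0.67, 0.698). A change of up to about these bounds was therefore not excluded. At 6 h the differences were 0.01 in footprints (0.98) and −0.15 in RNA.

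Cxcl1 (ENSMUSG00000029380) encodes a neutrophil attractant that acts on CXCR2. Its RNA stood at 25.6 and 23.1 RPKM in the controls, 28.5 and 31.8 at 6 h, and 77.0 and 86.3 at 21 h. The 3 groups were apart, with the 21 h libraries well above both others. Cxcl1 RNA rose at 21 h by 1.64 (SE 0.118, 95% interval 1.38 to 1.90, limma adjusted p = 5.22e-05) and stood 1.27 above 6 h (0.000305). At 6 h the difference was 0.37 (unadjusted p = 0.0109 and adjusted p = 0.309 by limma). Its footprints were 79.4 and 55.1 RPKM in the controls, 55.5 and 68.9 at 6 h, and 116 and 106 at 21 h. Controls and 6 h overlapped, and both 21 h libraries were higher. The footprint rise at 21 h was 0.71 (SE 0.168, 95% interval 0.32 to 1.09, limma adjusted p = 0.0105), and over 6 h it was 0.82 (0.00787). Without footprint control replicate 2 the first of these was 0.46 and was not called (limma adjusted p = 0.0623; 0.00237 to 0.0623 over 12 alternatives). Without 6 h replicate 1 the second was not called (0.0573; 0.00102 to 0.0573).

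Cxcl10 (ENSMUSG00000034855) encodes an interferon-induced attractant of T and NK cells that acts on CXCR3. Its RNA was 34.2 and 29.3 RPKM in the controls, 27.6 and 36.4 at 6 h, and 50.6 and 49.9 at 21 h. The 6 h libraries overlapped the controls, and both at 21 h were higher than all others. RNA rose at 21 h by 0.58 (SE 0.15, 95% interval 0.24 to 0.91, limma adjusted p = 0.0213) and by 0.50 over 6 h (0.0488). The call against the controls was lost without control replicate 2 (limma adjusted p = 0.145), 21 h replicate 1 (0.0916) or 21 h replicate 2 (0.061), with no filter on low values (0.0505) and without the trend (0.0911), out of a range of 0.00362 to 0.145. That against 6 h was lost without 6 h replicate 1 (limma adjusted p = 0.249), 21 h replicate 1 (0.173) or 21 h replicate 2 (0.119), with a pseudocount of 0.1 (0.0527), no filter on low values (0.102), quantile normalization (0.0948) and without the trend (0.154), out of a range of 0.015 to 0.249. Cxcl10 footprints were 239.9 and 212 RPKM in the controls, 239 and 246 at 6 h, and 241 and 287 at 21 h. Control and 6 h libraries overlapped, as did control and 21 h libraries after the scaling used in the test, where 21 h replicate 1 (236) was below control replicate 1 (238). The footprint difference was 0.18 at 21 h (95% interval −0.05 to 0.42, limma adjusted p = 0.193) and 0.09 at 6 h (0.679), and without 21 h replicate 1 it was called at 21 h (0.045; 0.045 to 0.672 over 12 alternatives).

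Cxcl16 (ENSMUSG00000018920) encodes a membrane-bound chemokine that ADAM10 can shed and that binds CXCR6. Its footprints stood at 8.85 and 9.59 RPKM in the controls, 14.7 and 14.9 at 6 h, and 19.8 and 17.5 at 21 h. The 3 groups were apart and in order of time. Cxcl16 footprints rose at 21 h by 0.94 (SE 0.152, 95% interval 0.59 to 1.29, limma adjusted p = 0.00174). At 6 h the difference of 0.64 (95% interval 0.29 to 0.99) missed the threshold (limma adjusted p = 0.0691), as did that of 0.30 between 6 h and 21 h (0.169). Its RNA was 1.96 and 1.66 RPKM in the controls, 3.73 and 1.44 at 6 h, and 7.32 and 7.98 at 21 h, from 13, 13, 20, 9, 46 and 45 reads. The 6 h libraries lay on either side of the controls, and both 21 h libraries were far above. RNA rose at 21 h by 1.74 (SE 0.349, 95% interval 0.96 to 2.52, limma adjusted p = 0.00697), and by 1.37 over 6 h (0.0273). The latter was not called without 6 h replicate 2 (0.80, limma adjusted p = 0.115), 21 h replicate 1 (0.0959) or 21 h replicate 2 (0.113), with no filter on low values (0.0822) and without the trend (0.07), out of a range of 0.000425 to 0.115.

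Ccl2 (ENSMUSG00000035385) encodes the monocyte attractant that acts on CCR2, and was the only gene of the 8 called lower in footprints at 21 h. Its footprint level was 372 and 359.5 RPKM in the controls, 359 and 349.6 at 6 h, and 293 and 292 at 21 h. Both 21 h libraries were below every other footprint library, and the 6 h libraries were just below the controls. Footprints fell by 0.36 at 21 h (SE 0.0732, 95% interval −0.52 to −0.19, limma adjusted p = 0.00544). They were −0.06 from the controls at 6 h (0.686) and fell by 0.30 from 6 h to 21 h (limma adjusted p = 0.0169). This last call was lost without 6 h replicate 1 (limma adjusted p = 0.117), 6 h replicate 2 (0.09) or 21 h replicate 2 (0.0521) and without the trend (0.0873), out of a range of 0.0102 to 0.117. Ccl2 RNA was 36.5 and 38.6 RPKM in the controls, 44.6 and 41.0 at 6 h, and 35.4 and 43.5 at 21 h. The 21 h libraries lay on either side of the controls, with a difference of −0.02 (95% interval −0.29 to 0.25, limma adjusted p = 0.931). At 6 h the RNA difference was 0.26 (0.449).

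Ccl5 (ENSMUSG00000035042) encodes an attractant of T cells and monocytes. Its footprints were 97.1 and 122 RPKM in the controls, 71.8 and 62.9 at 6 h, and 149 and 117 at 21 h. Both 6 h libraries were the lowest of the 6, and the 21 h libraries overlapped the controls. The difference at 6 h was −0.71 (SE 0.154, 95% interval −1.06 to −0.35) and just missed the threshold (limma adjusted p = 0.0552), while voom called it (0.0146; 0.0146 to 0.27 over 12 alternatives). At 21 h the difference from the controls was 0.25 (limma adjusted p = 0.238). Between the times footprints rose by 0.95 (SE 0.154, 95% interval 0.60 to 1.30, limma adjusted p = 0.00284), a call that no left-out library changed. Ccl5 RNA was 35.1 and 34.3 RPKM in the controls, 26.5 and 30.1 at 6 h, and 27.4 and 30.6 at 21 h. All treated RNA libraries were below both controls, and the times overlapped. The RNA difference was −0.23 at 6 h (limma adjusted p = 0.504) and −0.34 at 21 h (0.0699), called with quantile normalization (0.0317; 0.0317 to 0.374 over 12 alternatives), and 21 h was −0.12 from 6 h (0.56).

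TE compares the change in footprints with that in RNA, with 1 model for all 12 libraries and a term for a group difference that differs between assays. Il6 had no control RNA read, so its TE is not given. At 6 h 0 of 7 genes were called by limma, where 0% of 9295 genes were called, 2 had an unadjusted p under 0.05 (7.64% of all genes) and voom called 0 (0.151%). At 21 h 0 of 7 were called by limma, where 0.409% were called, 3 had an unadjusted p under 0.05 (12.7% of all genes) and voom called 1, Cxcl1 (1.62% of all genes). The log2 TE difference of Cxcl1 at 21 h was −0.94 (95% interval −1.42 to −0.45, limma adjusted p = 0.106; 0.0349 by voom, which is the lowest of 16 alternatives, and up to 0.28). Its RNA had risen by more than its footprints, a difference that did not pass. For Cxcl16 the TE difference at 21 h was −0.80 (limma adjusted p = 0.456), for Cxcl10 −0.39 (0.445), for Lif −0.35 (0.684), for Ccl2 −0.34 (0.325), for Csf1 −0.26 (0.767) and for Ccl5 0.59 (95% interval 0.14 to 1.03, 0.275). Of the 7 genes with a TE value, Ccl5 alone had one above 0 at 21 h. At 6 h the TE difference of Ccl5 was −0.48 (limma adjusted p = 0.631), of Cxcl1 −0.48 (0.65) and of Ccl2 −0.32 (0.62). It was above 0 for Cxcl16 (0.27, limma adjusted p = 0.925), Csf1 (0.16, 0.934), Lif (0.10, 0.965) and Cxcl10 (0.02, 0.991).

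TE at 21 h was also set against TE at 6 h, a comparison added after the data were seen. Ccl5 was higher by 1.06 (SE 0.206, 95% interval 0.62 to 1.51, limma adjusted p = 0.0328), the only call among the 7 genes, where 0.592% of genes were higher and 0.42% lower. For Ccl5 this sets a footprint rise against RNA that differed by −0.12. The Ccl5 call was lost without any 1 of the 8 libraries of these groups (0.0502 to 0.156), with no filter on low values (0.06), without the trend (0.139) and by voom (0.11), out of a range of 0.0286 to 0.156. The Cxcl16 difference was −1.07 (limma adjusted p = 0.274), and it was called without RNA 6 h replicate 1 (0.0299; 0.0299 to 0.514 over 16 alternatives).

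**Figure D2:**
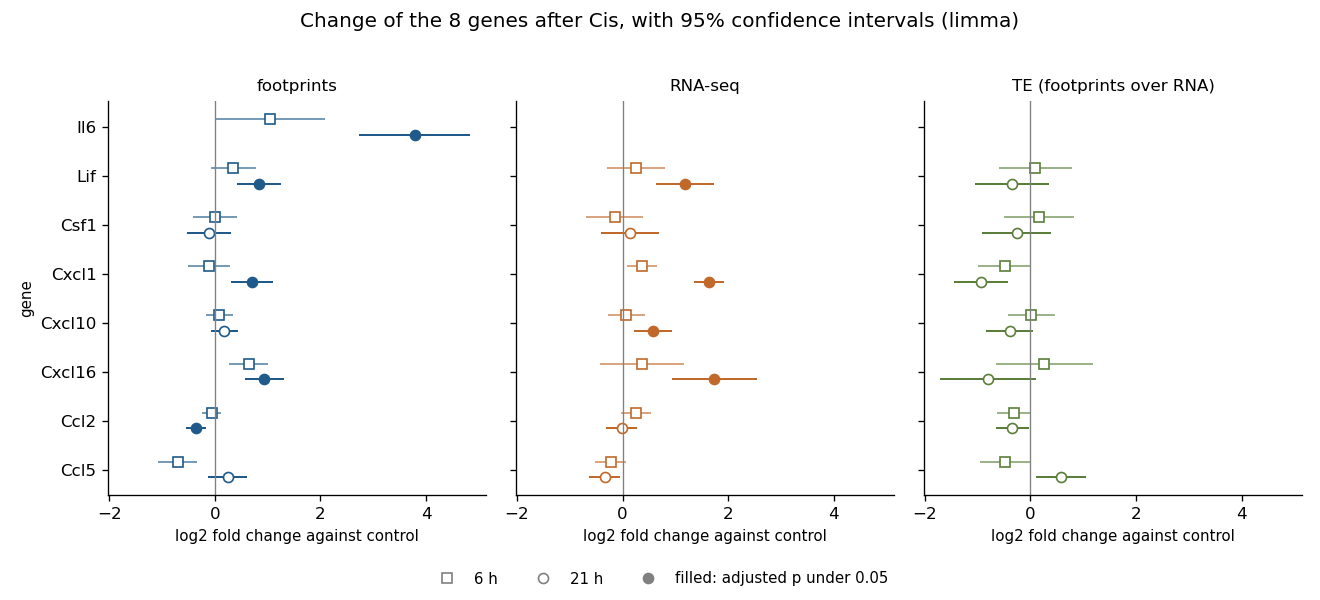
Log2 fold change of the 8 genes against control after 6 h (squares) and 21 h (circles) of Cis in footprints, RNA and TE, with 95% intervals from limma as bars and filled symbols for an adjusted p under 0.05. Il6 is left out of the RNA and TE panels because its control RNA libraries have no read; no 6 h symbol and no TE symbol is filled, and Ccl2 is the only gene with a filled symbol below 0.

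Other cytokines and chemokines were measured beside the 8 genes, and counts of such lists at 21 h stand against 18.9% higher and 20.2% lower among all genes in footprints and 11.6% and 12.2% in RNA. Of 10 other cytokines tested in footprints at 21 h 3 (Il15, Il34 and Csf3) reached the minimum level only through 1 group. Of the other 7, 1 rose and 1 fell (0 to 2 and 1 over the alternatives; median 0.18, against 0.01 over all genes), and of 6 in RNA 1 rose and 1 fell (0 to 1 and 0 to 2; 0.01, against 0.02). Csf2, which encodes the myeloid growth factor GM-CSF, rose in footprints by 1.38 (limma adjusted p = 0.0463), a call lost in 6 of 12 alternatives: without either control library or 21 h replicate 2 (0.146 to 0.225), with a pseudocount of 0.1, with no filter and without the trend. Csf2 RNA had 12 reads against 3, a ratio of 4.85 (95% counting interval 1.31 to 26.8), and its call (limma adjusted p = 0.00932) was lost without control replicate 2 or 21 h replicate 1 (0.0626 to 0.0693) and by voom. Il1rn, which encodes the IL-1 receptor antagonist, stood at 615 RPKM in control footprints and 441 at 21 h and fell by 0.51 (limma adjusted p = 0.00172). In RNA it fell by 0.36 (0.0141), and lost the call without either control library or 21 h replicate 2 (0.052 to 0.0985) and without the trend.

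Of 12 other chemokines tested in footprints at 21 h 3 rose and 2 fell, where 18.9% and 20.2% of all genes did (2 to 3 and 1 to 2 over the alternatives; median 0.09, or 0.07 with genes at the read floor set to their bounds). Of 10 in RNA 3 rose, where 11.6% of all genes did (2 to 4 over the alternatives; median 0.04). Ccl20, Cxcl2 and Cxcl3 were the 3 that rose in both assays. Ccl20, which encodes the attractant of CCR6-bearing cells, went from 9.68 ± 6.74 RPKM (SD, n = 2) in control footprints to 70.9 ± 7.60 at 21 h. It rose by 2.95 in footprints (limma adjusted p = 0.000737) and by 1.81 in RNA (0.002). Over 12 alternatives the footprint value ran from 2.23 to 3.66, and the call was lost in 0. Cxcl2, next to Cxcl1 on the chromosome and a ligand of the same receptor, went from 5.39 ± 0.536 to 13.4 ± 4.09 RPKM (SD, n = 2) in footprints. It rose by 1.18 in footprints (limma adjusted p = 0.0296) and by 2.40 in RNA (0.000636), and its footprint call was lost in 6 of 12 alternatives: without either control library or 21 h replicate 1 (0.0891 to 0.14), with no filter, without the trend and by voom. Cxcl3, near Cxcl1 on its other side, rose by 0.74 in footprints (0.00284) and by 0.73 in RNA (limma adjusted p = 0.0142), the RNA call being lost without control replicate 2 or either 21 h replicate (0.0524 to 0.108). Cxcl9, which lies near Cxcl10 on the chromosome and encodes a ligand of the same receptor, fell by 0.74 in footprints (limma adjusted p = 0.0346), a call lost in 7 of 12 alternatives: without control replicate 2 or either 21 h replicate (0.07 to 0.228), with no filter, with quantile normalization, without the trend and by voom.

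Few receptors of the 8 ligands had enough reads to be tested. Of 11 receptor genes 7 were listed, 3 were tested in footprints and 1 in RNA, and limma called 0 at 21 h, where 0 had an unadjusted p under 0.05. Il6st, which encodes gp130, differed by −0.06 in footprints (limma adjusted p = 0.835) and −0.08 in RNA (0.86), Il6ra by 0.35 in footprints (0.504), and Lifr by −0.75 in footprints (0.125, and 0.0391 by voom, which called it). Csf1r, the CSF1 receptor, had 0 to 8 footprint reads. Of 11 genes of IL-6 family signalling tested, 1 rose and 4 fell in footprints (1 and 2 to 5 over the alternatives; median −0.39) and 2 fell in RNA (0 to 4; median −0.31). Socs3, the feedback inhibitor that STAT3 induces, rose in footprints by 1.10 (limma adjusted p = 0.00111), and was 1 of 3 genes of all these lists called at 6 h (0.87, adjusted p = 0.0385), the others being Pf4, with too few reads for a fold, and Hnrnpd, which fell by 0.55 (0.0285). These calls at 6 h were lost without control replicate 1 or either 6 h replicate for Socs3 (0.129 to 0.223), and without any 1 of the 4 libraries for Hnrnpd (0.0702 to 0.191) and Pf4 (0.0614 to 0.208); all 3 were also lost with no filter and without the trend, and Pf4 by voom. Jak1 fell by 0.58 in footprints (limma adjusted p = 0.00322). Stat3 fell by 0.73 in RNA (limma adjusted p = 0.0238), a call lost without either control library or 21 h replicate 1 (0.0689 to 0.141). Of 4 shedding proteases and their partners 1 fell in each assay: Adam10, the protease of Cxcl16, went from 87.7 to 42.7 RPKM in footprints, which fell by 1.06 (limma adjusted p = 0.000128), and its RNA fell by 0.88 (0.0049). Adam17, which sheds the IL-6 receptor, differed by −0.31 in footprints (limma adjusted p = 0.102, and 0.0389 by voom, which called it) and −0.32 in RNA (0.347).

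Of 14 genes of cytokine transcription tested, 10 rose and 1 fell in footprints at 21 h (median 0.53), where 18.9% and 20.2% of all genes did. The 10 became 6 without control replicate 2, which ended the calls of Cebpd, Relb, Nfkb2 and Irf7, and 6 to 9 with any 1 library left out. In RNA 4 of 13 rose (median 0.56), where 11.6% of all genes did, and 2 to 7 over the alternatives; Nfkbie reached the minimum level there only through 21 h and is left out. Cebpd, a C/EBP factor, rose by 1.45 in footprints (limma adjusted p = 0.00729, or 0.0539 without control replicate 2) and by 1.74 in RNA (0.00643, or 0.0521 without control replicate 2). Rel, which encodes the NF-κB subunit c-Rel, rose by 1.18 in footprints (limma adjusted p = 0.000633) and by 0.90 in RNA (0.0301), where the call was lost without any 1 of the 4 libraries (0.0674 to 0.162) and with no filter. Rela, which encodes the subunit p65, rose by 1.09 in RNA (limma adjusted p = 0.00355). The gene that fell was Nfkb1, which encodes p105 and p50 and fell by 1.08 in footprints (limma adjusted p = 0.000922). Among 9 genes of cytokine mRNA decay 3 rose and 1 fell in each assay (median 0.01 in footprints and 0.04 in RNA), where 39.1% of all genes were called in footprints and 23.8% in RNA; over the alternatives 2 to 3 rose in each, and 1 to 2 fell in footprints and 1 in RNA. Zfp36, which encodes tristetraprolin, a protein that binds AU-rich elements and speeds decay, rose by 2.19 in footprints (from 4.23 to 21.5 RPKM, limma adjusted p = 5.83e-05) and by 2.41 in RNA (0.000466). Its relative Zfp36l1 rose by 1.54 in footprints (limma adjusted p = 0.000277) and by 1.07 in RNA (0.00212). Hnrnpd, which encodes the AU-rich element binding protein AUF1, fell by 0.76 in footprints (limma adjusted p = 0.000264) and by 0.81 in RNA (0.00243).

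Promoter sequence was available for 5 of the 8 genes (250 bases before the start, RefSeq, GRCm38.p6), and is shown because 3 of these 5 genes rose in RNA at 21 h and Il6 had RNA reads only then. Capitals mark matches, on either strand, to an NF-κB motif, AP-1 (TGANTCA), the interferon-stimulated response element ISRE and C/EBP (TTNNGNAA); the letters used for NF-κB and ISRE are not printed.
Il6, chr5:30012864-30013113, plus strand: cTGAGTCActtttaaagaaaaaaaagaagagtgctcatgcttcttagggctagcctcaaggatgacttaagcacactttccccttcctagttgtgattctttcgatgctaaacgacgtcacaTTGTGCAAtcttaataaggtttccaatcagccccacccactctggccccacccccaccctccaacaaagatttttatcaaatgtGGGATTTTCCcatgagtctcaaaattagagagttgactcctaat
Cxcl10, chr5:92348890-92349139, minus strand: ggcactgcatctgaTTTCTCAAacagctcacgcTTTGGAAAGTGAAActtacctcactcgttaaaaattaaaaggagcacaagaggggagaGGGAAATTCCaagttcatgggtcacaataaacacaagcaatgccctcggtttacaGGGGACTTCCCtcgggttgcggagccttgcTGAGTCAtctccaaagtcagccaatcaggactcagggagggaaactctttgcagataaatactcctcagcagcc
Cxcl1, chr5:90890995-90891244, plus strand: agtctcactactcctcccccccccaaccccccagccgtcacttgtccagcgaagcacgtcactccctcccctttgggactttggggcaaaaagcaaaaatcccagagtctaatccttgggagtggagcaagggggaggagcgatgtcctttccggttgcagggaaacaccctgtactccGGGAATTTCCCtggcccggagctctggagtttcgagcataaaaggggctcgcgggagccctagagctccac
Lif, chr11:4257318-4257567, plus strand: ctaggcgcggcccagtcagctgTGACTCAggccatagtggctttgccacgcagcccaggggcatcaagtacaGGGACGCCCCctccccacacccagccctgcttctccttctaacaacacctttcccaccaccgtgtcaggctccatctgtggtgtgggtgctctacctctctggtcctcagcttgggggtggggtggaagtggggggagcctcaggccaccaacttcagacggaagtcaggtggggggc
Csf1, chr3:107760470-107760719, minus strand: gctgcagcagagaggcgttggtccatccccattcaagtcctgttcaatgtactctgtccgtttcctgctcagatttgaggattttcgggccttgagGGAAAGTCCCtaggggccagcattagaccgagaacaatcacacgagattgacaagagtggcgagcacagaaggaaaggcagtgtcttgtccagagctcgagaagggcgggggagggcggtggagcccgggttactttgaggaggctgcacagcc
The NF-κB motif was in 5 of 5, against 7.25% of 32841 promoters of the same length. It lay 44 to 35 bases before the start in Il6, 71 to 61 in Cxcl1 (1 match on each strand, overlapping), 159 to 150 and 104 to 94 in Cxcl10 (the latter as overlapping matches), 178 to 169 in Lif and 154 to 145 in Csf1. Csf1, whose RNA did not pass the test, thus held these letters as the genes that rose did. AP-1 letters were in 3 of 5 (Il6, Cxcl10 and Lif), against 6.75% of promoters, and C/EBP letters in 2 (Il6 and Cxcl10), against 36.9%. ISRE letters were in 1, Cxcl10, at 213 to 204 bases before the start and overlapping a C/EBP match, against 2.98%. Such matches describe the letters only. Ccl2, Ccl5 and Cxcl16 are named without a sequence.

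For each of the 8 genes the 2 most alike were taken among up to 5575 well-measured genes, by Pearson r of log2 levels over the 12 libraries after centring each assay, as a description across libraries that share 3 conditions. For Il6 they were Utp4 (r = 0.982) and Cep55 (0.979), for Lif Psma1 (0.96) and Tox4 (0.957), and for Csf1 Socs5 (0.916) and Cd3eap (0.865). Il6 reached the minimum RNA level only through 21 h, with no RNA read in the control and 6 h libraries. Its r values partly describe that pattern and are not read as a closer likeness than those of the other genes. Among the CXC chemokines they were Rnf19b (r = 0.968) and Ddx42 (0.964) for Cxcl1, Cggbp1 (0.942) and Med29 (0.924) for Cxcl10, and Nfya (0.972) and Uhrf1 (0.967) for Cxcl16. For Ccl2 they were Tle5 (r = 0.923) and Ubtf (0.889), and for Ccl5 H4c2 (0.874) and Pura (0.856). Ccl5 and Csf1 had the weakest likenesses of the 8. None of the 8 had another of the 8 among its 2 closest.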

How the data were processed

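The authors trimmed reads with cutadapt and aligned them with STAR to GRCm39 per the submitters' processing notes, which name no versions, and deposited RPKM for each transcript and library; the program that counted these reads is not given there. Salmon, which the methods of the study name, belongs to their section on another RNA-seq protocol, whose data were deposited elsewhere, and was not taken to apply. All values (100%) came out as whole reads (within 1e-06 of a read), which were recovered to give depth and floors. Lengths were of the coding region for footprints and of the transcript for RNA. RPKM were scaled between libraries by median of ratios, genes with a mean scaled RPKM under 1 were left out, and log2(scaled RPKM + 0.5) was fitted with limma 3.58.1 (lmFit, eBayes with trend) in R 4.3.3. The 3 groups of an assay were in 1 model, TE was an interaction term in a model of 12 libraries, and two-sided p-values were Benjamini-Hochberg adjusted over all genes tested, with a threshold of 0.05. Genes of the 8 and of the lists that reached the minimum level only through the group where they were highest (a mean under 1 over the libraries of the other groups) were left out of the counts, a choice made after the data were seen. Fold changes are on this scale, which understates those of low genes. An exact permutation test of 2 against 2 cannot go below p = 0.333 and was not used. Tables and figures used Python 3.11.15, pandas 2.3.3, numpy 2.4.6 and matplotlib 3.10.9. Replicates correlated across genes (which are not independent replicates) at Pearson r = 0.968 to 0.990 and differed by more than sampling noise, with a chi-square per degree of freedom of 1.45 to 3.97. The fit was run on simulated data with 200 genes changed by 1 on the log2 scale in footprints at 21 h only. It called 184 of them with the right sign, and 4 unchanged genes. The changed genes all lay well above the minimum level in both assays and were far fewer than those called in the real data. Recovery of changes in low genes or in RNA was therefore not tested. Named genes are the 8 members; up to 3 called genes per list and assay with the largest change at 21 h; tested receptors and shedding proteases of members; and the 2 genes most like each member. Krt18, Pf4 and the genes called at 6 h were named after their values were seen. The lists were 7 of related genes and 4 of cell type markers, and some of their genes that the rule would name are not reported here. Members and lists were chosen with earlier results of these data known. Alternatives were other pseudocounts (0.1 and 1), no filter, no scaling, quantile normalization, no trend, a replicate block, voom on the recovered reads and each library left out.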

Additional observations from a re-analysis of the deposited data

Results flagged for a closer look

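Values at 6 h and 21 h of Cis differed from each other, by a direct limma test of 21 h against 6 h that does not separate drug from time in culture, for 4 of 8 genes in footprints, 4 of 7 in RNA and 1 of 7 in TE. Among all genes, 15% were called higher and 15.7% lower in footprints, 7.53% and 8.21% in RNA, and 0.592% and 0.42% in TE. In footprints the log2 difference was 2.74 for Il6, 0.95 for Ccl5, 0.82 for Cxcl1 and −0.30 for Ccl2. In RNA it was 0.50 for Cxcl10, 1.27 for Cxcl1, 0.93 for Lif and 1.37 for Cxcl16. In TE it was 1.06 for Ccl5, a call lost in 12 of 16 alternatives. The RNA calls were lost in 8 of 12 alternatives for Cxcl10, 6 for Lif, 5 for Cxcl16 and 0 for Cxcl1. The footprint calls were lost in 4 of 12 alternatives for Ccl2, 1 for Cxcl1, 0 for Il6 and 0 for Ccl5.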

How the results depend on the processing

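Over the comparisons and alternatives run, 708 of 780 values of single genes of the 8 kept their direction and their side of the threshold, 44 lost a call, 4 gained one, 24 changed sign without being called and 0 were reversed. Il6 is not counted in RNA and TE, where it reached the minimum level only through RNA at 21 h. For TE at 21 h against 6 h only Ccl5 is among these values, so the call that Cxcl16 gained there without RNA 6 h replicate 1 (limma adjusted p = 0.0299) is not counted in them. The larger moves in the number of genes called, of 8 in footprints and 7 in RNA and TE, were as follows, and the cause was not tested. By voom it was 1 for footprints at 6 h and 1 for TE at 21 h, where limma called 0. For RNA at 21 h against 6 h it was 1 with no filter and 1 without the trend, from 4. For TE at 21 h against 6 h it was 0 with no filter, 0 without the trend and 0 by voom, from 1. With 1 library left out, where the lone sample is assumed to vary like the other groups, it was 4 to 6 for footprints at 21 h, 2 to 4 for footprints at 21 h against 6 h, 2 to 3 for RNA at 21 h, 1 to 2 for RNA at 21 h against 6 h and 0 to 1 for TE at 21 h against 6 h. The single TE call left is Cxcl16, not Ccl5. Smaller moves were seen too. For RNA at 21 h the number was 3 with no filter, 3 without the trend and 5 with quantile normalization, from 4. For RNA at 21 h against 6 h it was 3 with a pseudocount of 0.1 and 3 with quantile normalization, from 4, and for footprints at 21 h against 6 h it was 3 without the trend, from 4.

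With replicate number as a replicate block, the counts called at 6 h, 21 h and 21 h against 6 h were 0, 5 and 4 in footprints, 0, 4 and 3 in RNA, and 0, 0 and 0 in TE. Of the 8 genes it ended only the calls of Cxcl10 in RNA (limma adjusted p = 0.0668) and of Ccl5 in TE (0.0816), both at 21 h against 6 h. Of the list genes named, it ended the footprint calls of Cd14 and Stat3 at 21 h and of Socs3, Hnrnpd and Pf4 at 6 h. The Stat3 footprint difference at 21 h was −0.31 (limma adjusted p = 0.0481), a call lost in 7 of 12 alternatives. The deviations of libraries with the same number correlated at −0.0143 to 0.0047 in footprints and −0.00687 to 0.0215 in RNA, so the numbers were not taken to pair the samples.

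Without scaling, the median change over all genes moved from 0.014 to 0.153 for RNA at 21 h against 6 h and from −0.039 to −0.157 for TE. The split of higher to lower calls went from 711 and 775 to 1233 and 516 for RNA at 21 h against 6 h, from 1093 and 1152 to 1365 and 966 for RNA at 21 h, and from 55 and 39 to 42 and 112 for TE at 21 h against 6 h; no call of the 8 genes changed direction. Depth limits RNA most: Il6 had 12 and 11 RNA reads at 21 h and Cxcl16 9 to 20 before it.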

Other observations

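Among genes of the lists not given above, Cxcl5, which encodes a neutrophil attractant, was more abundant in footprints than any of the 8 genes, at 567 ± 57.3 RPKM (SD, n = 2) in the controls and 435 ± 5.15 at 21 h. Its footprints fell by 0.41 at 21 h (limma adjusted p = 0.00663), and its RNA differed by −0.21 (0.156). Irf1, an interferon regulatory factor, rose by 0.86 in footprints (limma adjusted p = 0.000382) and differed by 0.37 in RNA (0.214). Cebpb rose by 0.66 in footprints (limma adjusted p = 0.004) and by 0.56 in RNA (0.00716, or 0.0532 without control replicate 1). Relb rose by 1.01 in footprints (limma adjusted p = 0.00903, or 0.0649 without control replicate 2) and differed by 1.08 in RNA (0.129). These genes were picked from the lists after their values were seen.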
